A study of Homo sapiens with 3 samples.

Results

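Matrix metalloproteinases (MMPs), the tissue inhibitors of metalloproteinases (TIMPs), TFPI2 and PLAU were followed in single-cell RNA-seq of a multiple myeloma line and a bone marrow stromal line. The 10 genes, MMP1, MMP2, MMP3, MMP10, MMP14, TIMP1, TIMP2, TIMP3, TFPI2 and PLAU, were chosen by name, and all 10 were found among the 43913 gene symbols of the 3 count files. The libraries were made by Drop-seq, which encloses each cell with a barcoded bead in a droplet and tags each captured RNA with a unique molecular identifier (UMI), so that UMIs count molecules. MM.1S, an established line derived from multiple myeloma, gave 1 library, HS-5, an established and immortalised line of human marrow stroma, gave 1, and both lines together gave 1 after 4 h of coculture. No other treatment was given, and the monocultures came from independent cultures. Each cell type is thus represented by a single line and not by primary marrow cells.

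MMPs are zinc-dependent proteases that cleave the extracellular matrix, and TIMPs bind to their active site and block them. Most MMPs are secreted as inactive proenzymes, which plasmin and other MMPs activate; PLAU, the urokinase-type plasminogen activator, turns plasminogen into plasmin. TFPI2 is a secreted Kunitz-type inhibitor of plasmin and other serine proteases. In the bone marrow, stromal fibroblasts are a known source of MMPs, and myeloma is known for the remodelling of the matrix around it.

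The MM.1S library held 3994 barcodes and 10433182 UMIs, the HS-5 library 3865 barcodes and 6143448 UMIs, and the coculture 3963 barcodes and 3981392 UMIs. Barcodes with fewer than 200 genes were dropped, and each cell of the coculture was given to a line by 58 MM.1S-specific and 132 HS-5-specific genes, at least 50-fold apart between the monocultures. The 10 genes and all other listed genes were left out of that split. It gave 2063 HS-5 and 1568 MM.1S cells, while 99 cells held UMIs of both lines and were left out as doublets. HS-5 cells had a median of 971.5 UMIs in monoculture and 962 in coculture, and MM.1S cells 2201 and 688.5. Of 12 markers written for each line, 7 were at least 10-fold higher in their own line. The summed MM.1S markers stood at 10294 counts per 1000000 UMIs (CPM) in MM.1S and 214 CPM in HS-5 monoculture, whereas the HS-5 markers stood at 9600 CPM in HS-5 and 6052 CPM in MM.1S, since LGALS1, S100A6, CAV1 and FN1 were also high in MM.1S. The plasma cell marker SDC1 was lower in MM.1S (38.1 CPM) than in HS-5 (135 CPM). Of the barcodes of kept cells, 2 in MM.1S, 8 in HS-5 and 7 in the coculture also occurred in another library.

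Since the MMPs are one family, the question of whether reads can be told apart comes before their levels. The codons of the zinc-binding site of the 5 MMPs, taken from GENCODE 29 transcripts (GRCh38) and written 5′ to 3′ on the transcript strand, are shown because they mark the family and its closest pair; the capitals mark the codons of the histidines that hold the zinc.
MMP1: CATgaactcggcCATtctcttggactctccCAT
MMP2: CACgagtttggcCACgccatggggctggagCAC
MMP3: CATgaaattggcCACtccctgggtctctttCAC
MMP10: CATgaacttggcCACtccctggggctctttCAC
MMP14: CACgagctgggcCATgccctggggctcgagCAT
MMP3 and MMP10 were identical at 31 of the 33 bases, and MMP1 and MMP2 at 18 of 33. Of all stretches of 31 bases in the longest MMP3 transcript, 6.29% also occurred in MMP10, and none of those in MMP1, MMP14, TFPI2, PLAU, TIMP1 or TIMP3 occurred in another gene's transcript. In the 3′ part that Drop-seq captures, the last 500 stretches of each of the 10 transcripts were found in no other gene.

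The 250 bases before the transcription start were at hand in the RefSeq table (GRCh38.p14) for 6 of the 10 genes, TFPI2, MMP10, MMP14, TIMP1, TIMP3 and PLAU, the last with 2 entries. The pattern TGANTCA, a loose form of the AP-1 motif with any base at its centre, reads the same on both strands. It is shown because AP-1 factors are textbook regulators of MMP genes. This pattern occurred in TFPI2 and MMP10, and in 6.57% of all 35116 promoters of that length. Both matches read TGAATCA, with A at the open base. The strict motif, with C or G at that base, is a case of the pattern. It occurred in none of the windows of these 6 genes. The stretch of 27 bases around it is printed 5′ to 3′ on the gene's strand with the motif in capitals, for TFPI2 at chr7:93890824-93890850 (minus strand, motif beginning 87 bases before the start) and for MMP10 at chr11:102780679-102780705 (minus strand, 67 bases before the start).
TFPI2: tccccgtgcaTGAATCAgccacccctc
MMP10: aacacatgcaTGAATCAtactgttggt
The TFPI2 window lies inside the GENCODE gene, whose outermost start is upstream of the RefSeq start. A match is a description of the letters and not a bound site. These promoters belong to one of the most abundant transcripts of HS-5 cells and to one that was close to absent, as the following levels show.

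MMP1, interstitial collagenase, which cuts fibrillar collagens, was the most abundant of the 10 (chromosome 11, 102789920 to 102798160, minus strand, GENCODE 29). UMIs were summed over the cells of a line in each library and scaled to CPM, and the 95% intervals are exact Poisson intervals that cover counting error only. MMP1 stood at 11357 CPM in HS-5 monoculture (11273 to 11442, 69758 UMIs) and at 9844 CPM in HS-5 cells of the coculture (9720 to 9970, 24092 UMIs). In MM.1S cells it had 1 UMI in monoculture (0.0958 CPM) and 109 UMIs in coculture (83.8 CPM, 68.8 to 101). By CPM it ranked 3 among all genes of HS-5 monoculture cells and 2 in coculture.

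MMP3, stromelysin-1, which degrades proteoglycans and activates procollagenase, lies next to MMP1 (chromosome 11, 102835801 to 102843803, minus strand). Its level was 3259 CPM in HS-5 monoculture (3214 to 3304, 20017 UMIs) and 2782 CPM in coculture (2717 to 2849, 6809 UMIs). In MM.1S cells it had 1 UMI in monoculture and 32 in coculture (24.6 CPM, 16.8 to 34.7). Both genes belong to a cluster of 9 MMP genes over 435 kb, and they held 99.9% of the UMIs of the cluster in HS-5 monoculture. MMP10, stromelysin-2, the gene on the other side of MMP1 (102770503 to 102780628, minus strand), had 24 UMIs in HS-5 monoculture, 4 in coculture, and 5 and 1 in MM.1S cells. MMP12, macrophage elastase, beyond MMP3, stood at 7.65 CPM and 2.86 CPM in HS-5 cells. The expression of the cluster in HS-5 cells was thus that of 2 neighbouring genes.

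MMP14, the membrane-anchored MT1-MMP, which activates pro-MMP2 on the cell surface (chromosome 14, 22836557 to 22849027, plus strand), stood at 374 CPM in HS-5 monoculture (359 to 390, 2299 UMIs) and at 246 CPM in coculture (226 to 266, 601 UMIs). In MM.1S cells it had 12 UMIs in each culture (1.15 CPM and 9.23 CPM). Its substrate MMP2, gelatinase A (chromosome 16, 55389700 to 55506691, plus strand), stood at 91.8 CPM (84.4 to 99.7, 564 UMIs) and 110 CPM (97.6 to 124, 270 UMIs) in HS-5, with 2 UMIs and 1 UMI in MM.1S cells. MMP9, gelatinase B, was close to absent, with 2 and 5 UMIs in HS-5 cells and 0 in both groups of MM.1S cells, which allows up to 0.288 CPM in MM.1S monoculture and 2.31 CPM in coculture (3 counts per group).

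TIMP1, a soluble inhibitor of most MMPs (chromosome X, 47582313 to 47586789, plus strand), was the most abundant TIMP and was present in both lines. It stood at 435 CPM in HS-5 monoculture (419 to 452, 2672 UMIs), 504 CPM in HS-5 coculture (476 to 533, 1234 UMIs), 230 CPM in MM.1S monoculture (221 to 239, 2400 UMIs) and 173 CPM in MM.1S coculture (151 to 197, 225 UMIs). TIMP2, which blocks MMP2 and also links it to MMP14 at the membrane (chromosome 17, 78852977 to 78925387, minus strand), stood at 131 CPM (122 to 141, 806 UMIs) and 159 CPM (143 to 175, 388 UMIs) in HS-5 and at 19.4 CPM (16.8 to 22.2, 202 UMIs) and 36.9 CPM (27.2 to 49.0, 48 UMIs) in MM.1S. TIMP3, the TIMP that binds to the matrix (chromosome 22, 32801701 to 32863043, plus strand), had 9, 4, 5 and 2 UMIs in the same order of groups. Of the longest TIMP2 transcript, 4.69% of the 31-base stretches also occurred in transcripts of CEP295NL, and 3.93% of those of MMP2 in AC007336.3, none of them in the last 500.

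TFPI2 (chromosome 7, 93885396 to 93890991, minus strand) was nearly as abundant as MMP3, with 3206 CPM in HS-5 monoculture (3162 to 3251, 19693 UMIs) and 3283 CPM in coculture (3212 to 3356, 8035 UMIs). It ranked 12 among all genes in both. In MM.1S cells it had 6 UMIs in monoculture and 31 in coculture (23.8 CPM, 16.2 to 33.8). PLAU (chromosome 10, 73909177 to 73917497, plus strand) stood at 126 CPM (118 to 136, 777 UMIs) and 163 CPM (147 to 179, 398 UMIs) in HS-5, with 12 and 8 UMIs in MM.1S cells.

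Divided by the length of the longest transcript, the order in HS-5 monoculture was MMP1 (5765 CPM per kb), MMP3 (1617), TFPI2 (1311), TIMP1 (397), MMP14 (100.3), PLAU (47.6), TIMP2 (35.9), MMP2 (24.5), MMP10 (2.22) and TIMP3 (0.318), all in CPM per kb. Without that division TIMP2 stood before PLAU, with overlapping intervals (122 to 141 and 118 to 136 CPM). Because 3′ tags count molecules and not fragments, the order without division is the more usual one for Drop-seq. MMP3 and TFPI2 overlapped as well in HS-5 monoculture (3214 to 3304 and 3162 to 3251 CPM), and in coculture TFPI2 stood above MMP3. Together the 10 genes made up 1.9% of the UMIs of HS-5 monoculture cells and 1.71% in coculture, against 0.0254% in MM.1S monoculture. The summed CPM of the 5 MMPs was 26.6 times that of the 3 TIMPs in HS-5 monoculture, 19.5 times in coculture and 0.00806 times in MM.1S monoculture.

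Between the monocultures, 6 of the 8 genes that averaged 10 CPM or more were at least 10-fold higher in HS-5, and 9.26% of the 8734 genes at that level were. The 6 were MMP1, MMP2, MMP3, MMP14, TFPI2 and PLAU. All 6 stood at or below 1.15 CPM in MM.1S monoculture. They reached a mean of 10 CPM only through HS-5, which fixed their direction, so nothing is read from this count. MMP1 was 118488 times higher in HS-5 (counting interval 21266 to 4680100, from 1 UMI in MM.1S), TFPI2 5575 times (2561 to 15193) and PLAU 110 times (62.6 to 214). The exceptions were both inhibitors: TIMP2 was 6.78 times higher in HS-5 (5.80 to 7.95) and TIMP1 1.89 times (1.79 to 2.00). There was 1 library per line, so no difference has a replicate check and no test was made.

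To ask what 4 h of coculture did to the protease genes of the stromal cells, each level in HS-5 cells of the coculture was set against the monoculture as a log2 ratio with a pseudocount of 1 CPM. The 8 genes that averaged 10 CPM or more over both groups could be compared. MMP14 had the lowest ratio, -0.61 (counting interval -0.74 to -0.48), which is 1.52-fold lower, so 1 of 8 genes lay past 1.5-fold in the lower direction, where 9.97% of the 8800 genes at that level did. None of the 8 was 1.5-fold higher, where 7.83% of all genes were. The median log2 ratio was 0.12 over the 8 genes and -0.035 over all 8800 genes. MMP14 passed 1.5-fold narrowly. Its ratio ran from -0.91 to -0.57 over the settings tried, and it fell short of 1.5-fold with cells of 500 genes or more (-0.58), with ratios centred on all genes (-0.57) and with the trend with transcript length removed (-0.58).

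Within 1.5-fold, the collagenase and the stromelysin were lower and the other genes were level or higher. The log2 ratio was -0.21 for MMP1 (-0.23 to -0.19) and -0.23 for MMP3 (-0.27 to -0.19). Over the settings tried the value of MMP1 ran from -0.29 to -0.17, beyond its counting interval. The value of MMP3 was smaller, -0.10, with equal weight per cell and -0.14 in cells of 200 to 2500 genes with mitochondrial UMIs below 5%, both outside its counting interval. With MMP14, the counting interval lay below 1 for 3 of 8 genes, against 22.9% of all genes. It lay above 1 for 4 of 8, against 20.1% of all genes: PLAU 0.36 (0.18 to 0.54), TIMP2 0.27 (0.09 to 0.45), MMP2 0.26 (0.05 to 0.48) and TIMP1 0.21 (0.11 to 0.31). For TFPI2 it held no change, at 0.034 (-0.0033 to 0.072). The TFPI2 value was 0.11 with equal weight per cell and -0.0081 with the trend with transcript length removed, both outside that interval. The ratios of all genes followed transcript length, and with that trend removed the value of TIMP1 turned to -0.082 and the median of the 8 genes to -0.045.

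**Figure D1:**
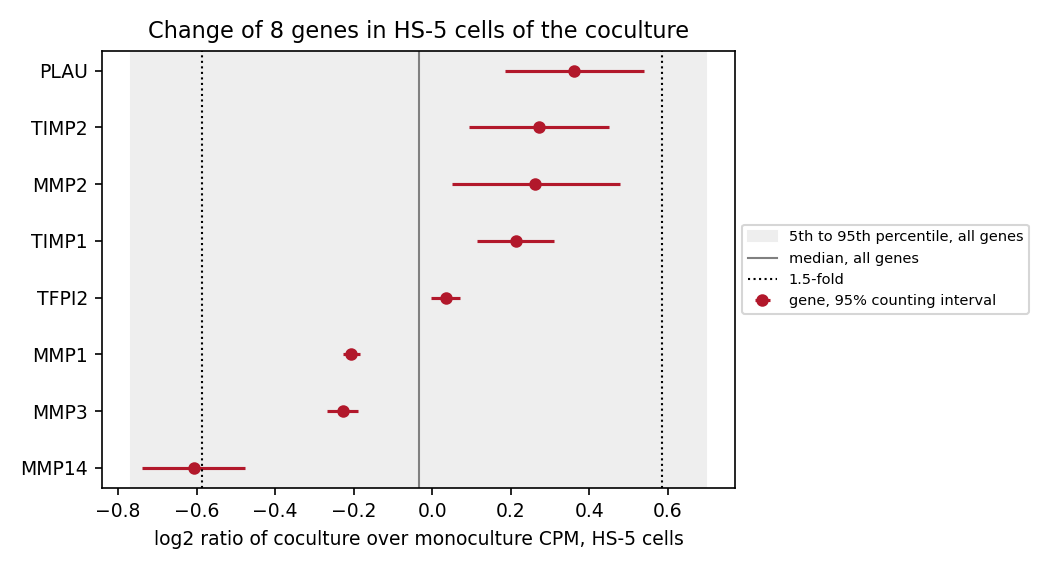
Log2 ratio of coculture over monoculture CPM in HS-5 cells for the 8 genes that averaged 10 CPM or more, with 95% counting intervals; the grey band spans the 5th to 95th percentile of 8800 genes and dotted lines mark 1.5-fold. All 8 genes lie inside the band, from -0.61 for MMP14 to 0.36 for PLAU.

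The share of cells with a UMI was compared after each cell was thinned to 1000 UMIs, which left out 1930 of 3732 HS-5 monoculture cells and 1071 of 2063 in coculture as too shallow. MMP1 was found in 99.1% of 1802 monoculture cells (exact Clopper-Pearson interval 98.6 to 99.5%) and in 97.8% of 992 coculture cells (96.7 to 98.6%). MMP3 was found in 81.2% (79.4 to 83.0%) and 72.3% (69.4 to 75%), and TFPI2 in 87.6% (86.0 to 89.1%) and 86.1% (83.8 to 88.2%). Nearly every HS-5 cell thus carried MMP1. The intervals cover the counting of cells within 1 library and say nothing of the spread between cultures.

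MMP14 was found in 31.1% of the thinned monoculture cells (28.9 to 33.3%) and 20.2% of the coculture cells (17.7 to 22.8%). TIMP1 was found in 31.9% (29.7 to 34.1%) and 35.9% (32.9 to 39.0%). TIMP2, MMP2 and PLAU were each found in 8.99 to 12% of the cells of either culture. Without thinning, the shares were 98.8% and 97.3% for MMP1, 77.0% and 70.2% for MMP3, 83.1% and 82.4% for TFPI2, and 41.7% and 23.8% for MMP14. In MM.1S monoculture, a library with no HS-5 cells, the thinned share was 0.0258% for MMP1 and 0 of 3870 cells for MMP3, which allows up to 0.0775% by the floor of 3 counts; before thinning 1 of 3947 cells had an MMP3 UMI. In MM.1S cells of the coculture, where HS-5 RNA was present, the thinned shares were 6.05% and 1.58%.

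The amount per cell varied more for the 3 abundant genes than counting alone gives, for which the variance equals the mean. The median was 11 MMP1 UMIs per thinned monoculture cell and 9 in coculture, with 46 and 29 as the highest. The variance over the mean was 2.57 and 2.60 for MMP1, 2.86 and 3.89 for MMP3, and 2.18 and 2.20 for TFPI2. The cells with the most MMP3, 10% of all, held 31.3% of its thinned UMIs in monoculture and 37.4% in coculture. For MMP2, MMP14, TIMP1 and TIMP2 the variance over the mean lay between 1.00 and 1.36, and for PLAU it was 1.39 and 1.76. At the same relative spread this measure rises with the mean. In monoculture the mean was 11.6 UMIs for MMP1, 3.02 for MMP3 and 3.22 for TFPI2, and 0.10 to 0.43 for the rest. The values therefore do not rank the genes by how unevenly cells express them.

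**Figure D2:**
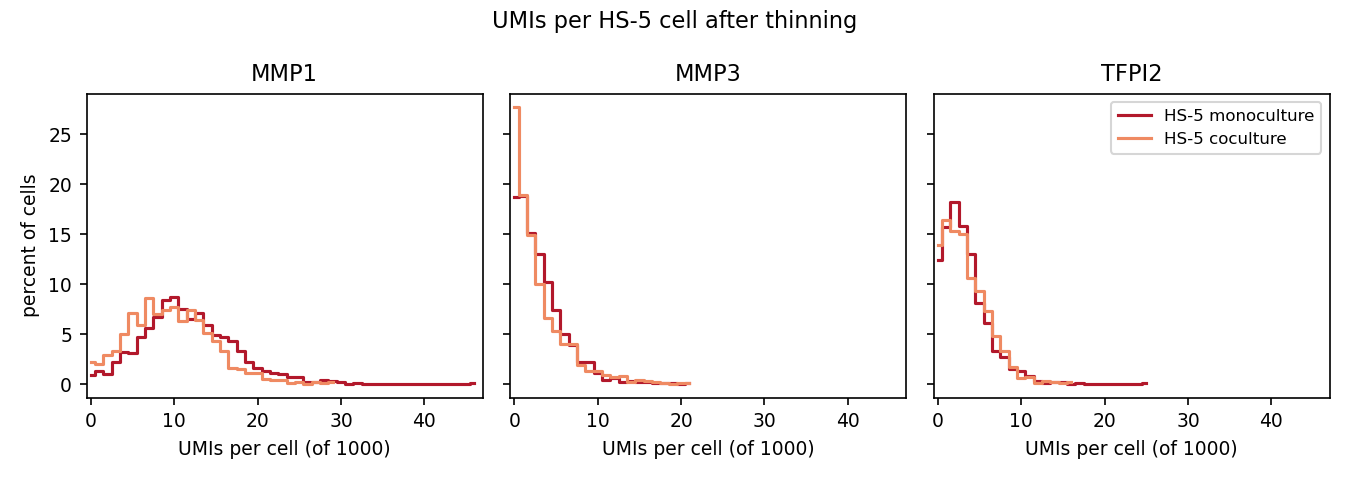
Percent of thinned HS-5 cells (y) with a given number of MMP1, MMP3 or TFPI2 UMIs out of 1000 (x), in monoculture and coculture. The MMP1 curves peak away from 0, whereas 18.8% of monoculture cells and 27.7% of coculture cells have no MMP3 UMI.

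Coexpression was described by Pearson's r of log2(UMI + 1) across thinned cells, which share a library and a depth. MMP1 and MMP3 had an r of 0.37 in monoculture (1802 cells) and 0.37 in coculture (992 cells). Over 10 random thinnings it ran from 0.34 to 0.37 in monoculture (mean 0.35) and from 0.37 to 0.44 in coculture (mean 0.40). The thinning used gave the highest of the 10 values in monoculture and the lowest in coculture. In monoculture cells at or below the lower quartile of 8 MMP1 UMIs (517 cells), the mean was 1.81 MMP3 UMIs, and in those at or above the upper quartile of 15 (488 cells) it was 4.27. In coculture, with limits of 6 and 13, the means were 1.37 and 4.26 MMP3 UMIs. Cells rich in the collagenase were thus also rich in the stromelysin in both cultures.

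TFPI2 followed with weaker values. Its r with MMP1 was 0.18 in monoculture and 0.23 in coculture, and with MMP3 0.17 and 0.13. The mean of TFPI2 was 2.63 UMIs in MMP1-low and 3.64 in MMP1-high monoculture cells. The other 25 of 28 pairs among the 8 genes lay between -0.09 and 0.08 in monoculture and between -0.09 and 0.05 in coculture, so MMP14 and its partners MMP2 (r of 0.019 and 0.033) and TIMP2 (0.0045 and -0.029) showed next to no shared variation. In such sparse counts weak values carry little.

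**Figure D3:**
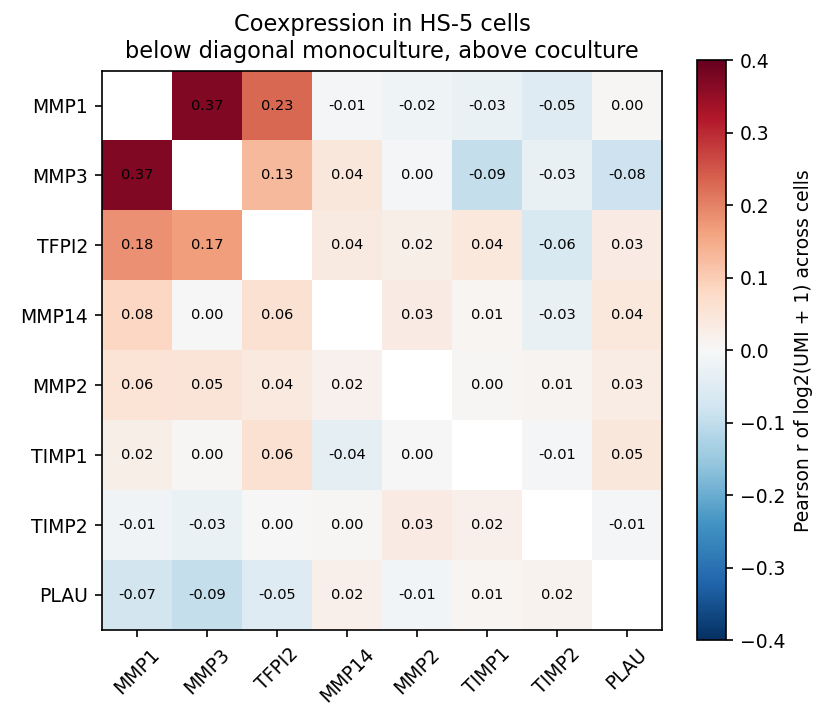
Pearson's r of log2(UMI + 1) across thinned HS-5 cells for each pair of 8 genes, monoculture below the diagonal (1802 cells) and coculture above it (992 cells). Only the 3 pairs among MMP1, MMP3 and TFPI2 exceed 0.1, led by MMP1 and MMP3 at 0.37 in both cultures in the thinning shown.

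Among the 2005 genes that averaged 0.1 UMI or more per thinned HS-5 monoculture cell, the genes nearest to MMP1 in r were MMP3, TFPI2 and the metallothionein MT2A (0.13, and 0.09 in coculture). Those nearest to MMP3 were MMP1, TMSB4X, which encodes thymosin beta (0.19 and 0.07), and FTL, the ferritin light chain (0.19 and 0.20). Those nearest to TFPI2 were GNG11, a G protein gamma subunit (0.19 and 0.17), MMP1 and MT2A (0.17 and 0.18). PLAU was nearest to the mitotic genes TPX2 (0.14 and 0.06), MKI67 (0.11 and 0.12) and KIF20B (0.11 and 0.14). For MMP2, MMP14, TIMP1 and TIMP2 the highest r was 0.08, 0.10, 0.09 and 0.08.

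The same measure against summed lists gave PLAU an r of 0.10 in monoculture and 0.13 in coculture with the 10 mitotic genes, where the other genes lay between -0.05 and 0.11. That list holds TPX2 and MKI67, already named as nearest to PLAU in the same cells, so it is no separate support. MMP3 had 0.18 and 0.11 with the 14 inflammatory genes, which include IL1B, IL6 and CXCL8, and TFPI2 0.13 and 0.13, whereas MMP1 had 0.032 and -0.023 and the other genes lay between -0.04 and 0.05. With the 12 matrix genes, mostly collagens, MMP1 had -0.08 and -0.13 and MMP3 -0.10 and -0.16, and the other genes lay between -0.0020 and 0.11. With the AP-1 and ETS factors, which had 1.24 UMIs per monoculture cell in all, every value lay between -0.04 and 0.06. Thinned MMP3 counts also followed the depth of the cell before thinning, with an r of 0.19 in monoculture and 0.06 in coculture, and MMP14 counts did so in the other direction (-0.12 and -0.12); the part of depth in these values was not tested.

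In MM.1S cells the question was whether coculture brought these transcripts into the myeloma cells. Of the genes that averaged 10 CPM or more, 4 of 5 were at least 1.5-fold higher in coculture, MMP1, MMP3, TFPI2 and TIMP2, where 33.2% of 7838 genes were. MMP1, MMP3 and TFPI2 reached that mean only through the coculture, which fixed their direction, so nothing is read from this count. TIMP1 had a log2 ratio of -0.41 (-0.61 to -0.21), and none was 1.5-fold lower, where 13.9% of all genes were. Free RNA of HS-5 cells can enter the droplets of MM.1S cells, and its share was read from 96 HS-5-specific genes: their level in MM.1S coculture cells above monoculture was a median of 1.75% of the level in HS-5 coculture cells, with a 5th to 95th percentile of 0.371 to 4.52%. MMP1, MMP3 and TFPI2 stood at 0.852%, 0.885% and 0.726% of theirs.

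The monoculture level plus this free RNA comes to 173 CPM for MMP1, 48.9 CPM for MMP3 and 58.2 CPM for TFPI2, above the 83.8, 24.6 and 23.8 CPM observed, so no level above HS-5 free RNA was seen for these genes. The same kind of genes had placed the cells in a line, so the share depends on the split, and the part of doublets with few HS-5 UMIs was not tested. Of the 8 listed collagen genes in MM.1S cells, COL1A1 went from 1.63 to 9.23 CPM, COL6A1 from 0.958 to 12.3 CPM and COL6A2 from 1.82 to 8.46 CPM. Their levels in HS-5 coculture cells were 618, 691 and 556 CPM, so all 3 lay below monoculture plus the median free RNA. In MM.1S coculture cells 3 counts are worth 2.31 CPM. COL1A2 stood at 3.07 and 3.85 CPM and COL5A1 at 4.41 and 4.61 CPM, while COL3A1 (2.78 and 2.31 CPM), COL5A2 (1.92 and 1.54 CPM) and COL6A3 (2.88 and 1.54 CPM) were not higher. The summed HS-5 markers went from 6052 to 5716 CPM, with THY1 at 0 in coculture. For TIMP2 the observed 36.9 CPM (27.2 to 49.0) exceeded the 22.1 CPM of monoculture plus free RNA, and also the 26.5 CPM given by the 95th percentile. It was 1 of 5 genes above this level, where 39.5% of 7838 genes were, so it was no exception among genes of MM.1S cells. With cells limited to 200 to 2500 genes and under 5% mitochondrial UMIs, no member lay above it.

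By share of thinned cells, MMP1 was found in 6.05% of 380 MM.1S coculture cells (3.88 to 8.94%), MMP3 in 1.58% (0.582 to 3.40%) and TFPI2 in 2.11% (0.913 to 4.11%), with at most 3 UMIs in a cell. TIMP2 was found in 1.63% of 3870 monoculture cells (1.25 to 2.08%) and 4.21% of coculture cells (2.43 to 6.75%). TIMP1 was found in 20.9% (19.7 to 22.2%) and 11.3% (8.31 to 14.9%). The 1188 shallower MM.1S cells of the coculture were left out of these shares, against 77 in monoculture. With the length trend removed, the log2 ratio of TIMP1 in MM.1S cells turned to 0.061, so its direction depends on that step in both lines.

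**Figure D4:**
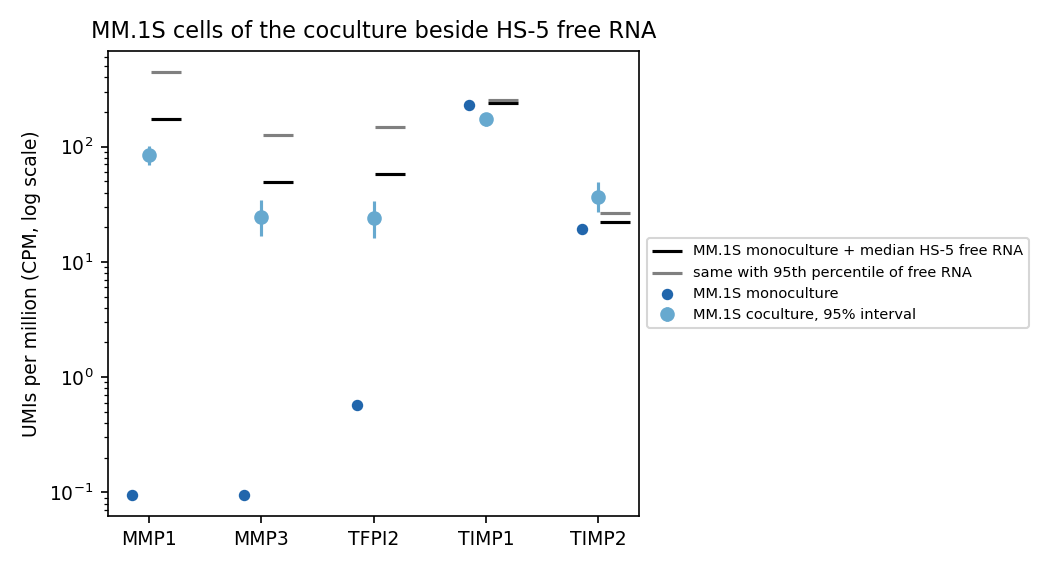
Level in MM.1S cells (CPM, log axis) of the 5 genes that averaged 10 CPM or more, in monoculture and in coculture (95% Poisson interval), beside the monoculture level plus HS-5 free RNA at its median and 95th percentile. MMP1, MMP3 and TFPI2 lie below both marks in coculture and TIMP2 lies above both.

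The wider protease network of HS-5 cells was read from lists written with the members. The list counts for HS-5 cells here and below are to be read against all 8800 genes measured. Of those, 9.97% were at least 1.5-fold lower in coculture and 7.83% higher. Of the plasminogen system, 2 of 8 measured genes were at least 1.5-fold lower in coculture and none higher. SERPINB2, an intracellular and secreted serpin, went from 584 to 315 CPM. PLAUR, the receptor that holds PLAU on the cell surface, stood at 155 and 164 CPM (log2 ratio 0.088, -0.083 to 0.26), and PLAT, the tissue-type activator, at 83.8 and 71.1 CPM (-0.23, -0.49 to 0.013). PLAU itself, PLAT and PLAUR thus stayed within 1.5-fold.

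Of the ADAM and ADAMTS proteases, 1 of 9 was lower, ADAMTS1, which cleaves proteoglycans, at -0.67. The remaining MMPs had 2 genes that averaged 10 CPM or more, MMP16 (-0.35) and MMP24 (-0.12), both membrane-type MMPs. Of the other inhibitors and activators, FURIN, which activates MMP14, was lower (-0.72) and TFPI, the relative of TFPI2 that inhibits coagulation, was higher (10.4 to 26.2 CPM, 1.25), out of 4. Among 10 cathepsins and cystatins, CTSD was lower and CTSK, a collagen-cleaving cathepsin, higher (0.83). Of 9 AP-1 and ETS factors, FOS was lower, from 208 to 7 UMIs (log2 ratio -3.17, -4.90 to -2.50).

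Of the 14 inflammatory genes, CSF2, CSF3 and PTGS2 were lower and TNFAIP6, which binds hyaluronan, higher (0.67); CSF2, the gene of the cytokine GM-CSF, had -2.81. Of 9 matrix genes COL5A1 was higher, and of 10 mitotic genes MKI67 and CENPF were lower. FOS and CSF2 had the lowest ratios, and TFPI, CTSK and TNFAIP6 the highest, of the 75 listed genes measured in HS-5 cells, so all 8 members lay between CSF2 and CTSK.

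In MM.1S cells 38 listed genes were measured. CTSB, a lysosomal cysteine protease, was the highest, from 52.4 to 316 CPM (log2 ratio 2.57, 2.40 to 2.78), followed by the factors JUNB (2.24) and CEBPB (2.01). The monoculture level plus HS-5 free RNA came to 70.9 CPM for CTSB at the median share and 100.2 CPM at the 95th percentile. The lowest were SPINT2, a Kunitz-type inhibitor of serine proteases (-1.05), CSTB, the cystatin that inhibits CTSB (-0.93), and TIMP4 (-0.85), which went from 42.4 to 23.1 CPM and stood at 1.79 CPM in HS-5 monoculture. The counts by list are to be read against the 33.2% of all genes that were 1.5-fold higher and the 13.9% that were lower. Of the other inhibitors and activators, 3 of 3 were lower (TIMP4, BSG and SPINT2). Of 6 cathepsins and cystatins, 2 were lower (CSTB and CST3) and 1 higher (CTSB). Of 7 AP-1 and ETS factors, 6 were higher. Among these, FOSL2, ETS2 and CEBPB lay below 10 CPM in MM.1S monoculture (7.19, 9.49 and 9.58 CPM). They reached a mean of 10 CPM only through the coculture, which fixed their direction, so nothing is read from their calls. Of 4 ADAM and ADAMTS proteases, 1 was lower (ADAM10) and 2 were higher (ADAM15 and ADAM19). None of 5 genes of the plasminogen system lay past 1.5-fold. Of 3 inflammatory genes CXCL8 was higher, at 25.4 CPM against 28.8 CPM for monoculture plus free RNA, of 1 matrix gene FN1 was higher, and of 9 mitotic genes PLK1 was lower and MKI67 higher; none of the remaining MMPs reached 10 CPM.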

How the data were processed

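Drop-seq was run on MM.1S and HS-5 monocultures and their coculture, 1 library each. The authors deposited whole-number UMI counts per gene and barcode, without normalization. The submitters' processing notes name Cell Ranger 3.0.2, UMI-tools 1.0.0, STAR 2.5.3a, Subread, featureCounts 1.6.4, SAMtools 1.9 and GRCh38 (hg38), with no roles; the methods name Seurat for later analyses.

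From there, barcodes with fewer than 200 genes were dropped. A coculture cell was given to HS-5 where HS-5 genes held a share of at least 0.8 of its line-specific UMIs and to MM.1S at 0.2 or less (10 such UMIs or more; 126 cells had fewer), and UMIs were summed per line and library to CPM. The pseudocount was 1 CPM. No clustering and no doublet caller was used, so doublets within a line remain. Cells were thinned once to 1000 UMIs for shares and correlations. Intervals are exact at 95% and cover counting error only. Each condition is 1 library, so there was no test. The tools were python 3.11.15, numpy 2.4.6, scipy 1.17.1, pandas 2.3.3 and matplotlib 3.10.9. On simulated counts for the HS-5 comparison (8805 genes), 100% of 200 changed genes had the right sign and 95.7% of intervals held the true ratio. Those counts were drawn as Poisson counts, as the intervals assume, so this checks the calculation only. Spread among cells or cultures was not simulated, and the planted changes were larger than those of the members measured in HS-5 cells.

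The members and lists (other MMPs, ADAM and ADAMTS proteases, plasminogen system, other inhibitors and activators, cathepsins and cystatins, AP-1 and ETS factors, inflammatory, matrix and mitotic genes, and markers of each line) were chosen with earlier results of these data known. Named were all members, PLAUR, PLAT and MMP9, the 3 highest and 3 lowest listed genes per line, and the 3 genes of highest r per member; other listed genes named beside a count of 5 or fewer, SERPINB2, ADAMTS1, FURIN, MMP12 and the listed collagens beside free RNA were chosen after their values were seen. A gene picked by this rule is left out of the text. Free RNA was first taken from summed levels; the median over genes was chosen after the members' values against the sum had been seen. Coordinates and lengths come from GENCODE 29 (GRCh38), which holds 97.3% of the symbols. In all 24 alternatives were run, of which 4 were added after seeing the data: free RNA from sums, free RNA at the 95th percentile, leaving out cells whose barcode another library also holds, and the mean over 10 thinnings.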

Additional observations from a re-analysis of the deposited data

Results flagged for a closer look

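The change with coculture had opposite signs in the lines for 3 of the 5 genes that averaged 10 CPM or more in each line. In MM.1S cells MMP1 and MMP3 reached that mean only through the coculture, which fixed their sign there, so nothing is read from this count. The difference was not tested, since each condition is 1 library and both lines of the coculture share 1. For MMP1 the log2 ratio was -0.21 in HS-5 and 6.27 in MM.1S cells (pseudocount of 1 CPM), from 1 UMI in monoculture to 109 in coculture. For MMP3 it was -0.23 and 4.55, from 1 UMI to 32. The levels of both genes in MM.1S cells lay below the level of free HS-5 RNA. For TIMP1 it was 0.21 in HS-5 and -0.41 in MM.1S cells, and both signs turned with the length trend removed (-0.082 and 0.061). MMP14 (-0.61 and 2.25) and MMP10 (-0.90 and 0.26) also had opposite signs, but lay below that mean in MM.1S cells, MMP10 in both lines. The counting intervals of MMP10 held no change in either line (-3.24 to 0.28 and -4.88 to 3.84).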

How the results depend on the processing

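Of 27 results, the 2 directions of TIMP1 turned (-0.082 in HS-5, 0.061 in MM.1S) when the trend with transcript length was removed, which also moved the median of the 8 genes in HS-5 to -0.045; the cause was not tested. The count of genes 1.5-fold lower in HS-5 coculture was 0 with cells of at least 500 genes, with ratios centred on all genes, with the length trend removed and at 2-fold, and 2 (MMP14 and MMP10) with a minimum of 1 CPM. No gene lay above free RNA in MM.1S cells with limits of 200 to 2500 genes and 5% mitochondrial UMIs, or with a minimum of 50 CPM, which removes TIMP2 from the count. Thinning to 500 UMIs gave an MMP3 share of 61.8% and 56.4% in HS-5 monoculture and coculture, and an r of MMP1 and MMP3 of 0.26 and 0.31; thinning to 2000 UMIs gave shares of 93.4% and 85.3%, with an r in coculture of 0.48. A second random thinning gave 0.44 in coculture, so single values of r are uncertain by about that much. Genes 10-fold higher in HS-5 numbered 5 or 6 and genes 1.5-fold higher in HS-5 coculture 0 under every setting run. The 10-fold count holds genes that passed the minimum mean only through HS-5, so its steadiness is no support. Equal weight per cell moved MMP14 to -0.86 and MMP3 to -0.10. No paired analysis was possible because each condition is 1 library. MM.1S coculture cells were the shallowest, with 3 counts worth 2.31 CPM, which limits MMP2, MMP10, TIMP3 and PLAU there.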

Other observations

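Pairs of neighbouring genes were looked at after MMP1 with MMP3 and TFPI2 with GNG11 had been seen to lead their lists. MMP1 and MMP3 lie 37.6 kb apart on chromosome 11. GNG11 (chromosome 7, 93921699 to 93928610, plus strand) lies 30.7 kb from TFPI2. There were 308 pairs of genes within 50 kb of each other, without overlap, among genes that averaged 0.1 UMI or more per thinned HS-5 monoculture cell. Their median r was -0.0022 in monoculture and their 95th percentile 0.0539. MMP1 and MMP3 came first in both cultures, the chemokine genes CXCL5 and CXCL3 next (0.22 in monoculture, 0.29 in coculture), and TFPI2 and GNG11 after them (0.19 and 0.17). IL1A and IL1B followed in monoculture (0.19) and had 0.06 in coculture. Over 10 thinnings the r of TFPI2 and GNG11 ran from 0.17 to 0.20 in monoculture and from 0.17 to 0.22 in coculture. Low counts weaken r, and the pairs were not matched for abundance. MMP1, MMP3 and TFPI2 averaged 11.6, 3.02 and 3.22 UMIs per thinned monoculture cell, far above the limit of 0.1. The order of the pairs is thus not read as a property of a locus. These are values of 2 libraries, with no test and no statement on a shared control.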
